A study of Mus musculus with 2 samples.

Results

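The 9 genes Gata4, Maf, Mecom, Meis1, Meis2, Sox17, Sox18, Erg and Tshz2 encode transcription factors tied to the identity of endothelial cells, the cells that line blood vessels and the sinusoids of the liver. They were taken by symbol from the gene table, which gave 9 of 32285 genes, all present in both libraries. RNA molecules of single dissociated liver cells were counted by droplet-based 3′ sequencing (10x Chromium 3′ v3). Each liver came from a mouse host with a knockout of Hhex that had been injected at the blastocyst stage with tetraploid (4N) embryonic stem cells carrying tdTomato, a red fluorescent protein. One library was labelled P180 (days after birth) and the other E18.5 (days of embryonic development), so each stage is 1 liver without a replicate. Donor and host cells could not be told apart, since the table holds 0 tdTomato features.

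Endothelial cells share a common programme driven by ETS factors such as Erg and by SoxF factors such as Sox17 and Sox18. On top of it, cells of each vessel bed carry their own set of factors. In the mouse liver, sinusoidal endothelium is fenestrated and rich in scavenger receptors such as Stab2, and Gata4 and Maf are known to maintain that state. Meis1 and Meis2 are homeobox factors of the TALE class. Mecom is a zinc finger factor known from blood stem cells and from arterial endothelium, Sox17 is known for arterial identity and Sox18 for early lymphatic vessels. Tshz2 belongs to the teashirt zinc finger family.

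The table of sequences from RefSeq (GRCm38.p6) gave 8 upstream windows of 250 bases for 5 of the 9 genes. Of these windows, 3 held a match to at least 1 of 5 short motifs that the factor families are known to bind. These 3 are shown because they hold letters read by the same families as the genes described. Capitals mark the matches, the strand is that of the gene, and the windows lie directly upstream of an annotated start.
Erg, inner start, chr16:95459349-95459598, minus strand: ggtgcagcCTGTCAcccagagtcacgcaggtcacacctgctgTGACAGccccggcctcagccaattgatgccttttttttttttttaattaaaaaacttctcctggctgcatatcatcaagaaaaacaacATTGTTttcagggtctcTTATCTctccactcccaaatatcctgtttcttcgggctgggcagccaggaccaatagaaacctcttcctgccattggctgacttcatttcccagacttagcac
Meis1, chr11:19018970-19019219, minus strand: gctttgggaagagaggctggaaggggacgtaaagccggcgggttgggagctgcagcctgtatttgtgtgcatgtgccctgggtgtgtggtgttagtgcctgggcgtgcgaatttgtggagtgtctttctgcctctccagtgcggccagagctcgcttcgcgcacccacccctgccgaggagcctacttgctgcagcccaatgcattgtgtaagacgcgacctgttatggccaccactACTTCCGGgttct
Mecom, inner start, chr3:30013205-30013454, minus strand: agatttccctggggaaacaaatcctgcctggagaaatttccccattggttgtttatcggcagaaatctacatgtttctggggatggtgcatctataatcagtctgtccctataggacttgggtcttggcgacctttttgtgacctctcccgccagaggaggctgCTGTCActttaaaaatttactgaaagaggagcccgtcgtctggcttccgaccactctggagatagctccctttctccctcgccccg
The motifs were searched on both strands. The letters AGATAA, known from GATA factors, occurred in 9.99% of all 32851 windows. For ETS factors CCGGAAGT was searched (2.88% of windows), for SOX factors AACAAT (9.42%), for Meis factors TGACAG (15.9%) and for Maf TGCTGAC (3.81%). The inner Erg window held 1 GATA, 1 SOX and 2 Meis matches, the Meis1 window 1 ETS match and the inner Mecom window 1 Meis match. No match was found in the windows of Meis2 and Tshz2, in the outer window of Mecom and in both other windows of Erg. The share of all windows with any of the 5 motifs was not counted, so 3 of 8 windows is not read as more than usual. Whether any of these matches is bound was not tested, and the levels below are summed over all transcripts of a gene.

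The library labelled P180 held 90128038 UMIs (unique molecular identifiers, each counting 1 RNA molecule) over 9771 barcodes, and the library labelled E18.5 held 37709972 over 9871. After filtering, 8847 and 4543 cells remained, given here for P180 and then E18.5. The contents ran against the stage labels. Erythroid-like cells, the main cell of the liver before birth, made up 78.0% of cells labelled P180 and 1.34% of cells labelled E18.5, and B cell-like cells, typical after birth, 2.27% and 28.5%. The libraries are therefore called by their label throughout, and every direction below is one between labels. Among kept cells, 11 barcode sequences were shared. Median mitochondrial content per barcode was 0.655% and 16.7%. Hhex, the targeted gene, was detected in endothelial-like cells of both libraries, at 57.7 CPM (a gene's share of the summed UMIs, scaled to 1e6) with the P180 label and 131 CPM with the E18.5 label. The labels do not say which stretch of the gene was deleted, so these 3′ tags do not check the knockout.

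Endothelial-like cells numbered 110 (1.24% of cells) with the P180 label and 1021 (22.5%) with the E18.5 label. Clusters were made without the 9 genes and without the lists of transcription factors used below, so these genes did not set the classes directly. Pan-endothelial genes were present in both, such as Pecam1 at 559 CPM labelled P180 and 873 CPM labelled E18.5 and Kdr at 849 and 855 CPM in the same order. Over 15 such genes the ratio ran from 0.383 for Plvap to 1.65 for Cldn5. The P180 cells formed 1 cluster led by Fabp4, Ptprb and Meis2 (624111 UMIs, median 3353.5 per cell). Haemoglobin genes made up 4.36% of its UMIs. The E18.5 cells formed 3 clusters. The cluster led by Stab2 (429 cells, 1194391 UMIs) had 9 sinusoid markers among its top genes, and its median mitochondrial content was 15.9%. The cluster led by Ldb2 (370 cells, 1525269 UMIs) had 3 markers of arterial or portal vessels and 2 of the central vein, at 11.9% mitochondrial. The cluster led by Rspo3 (222 cells, 1238800 UMIs) had 5 markers of the central vein, at 8.68% mitochondrial. Haemoglobin made up 0.190% to 0.369% of UMIs in these 3. Intervals below are exact 95% intervals for counting error only, and they leave out the spread between cells and between animals. A gene counts as higher or lower when its level differs at least 2-fold and at least 50 UMIs were counted on at least 1 side. No test between stages was possible with 1 library each.

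In the library labelled P180, 8 of the 8 genes that reached the minimum were higher in endothelial-like cells than in all other cells, and in the library labelled E18.5 all 9 were. Sox18 with the P180 label, with 16 UMIs in endothelial-like cells and 2 in the others, did not reach the minimum. Of all genes that did, 42.8% in the library labelled P180 and 18.4% in that labelled E18.5 were at least 2-fold higher in endothelial-like cells. The 9 genes were chosen with earlier results of these data known, so their counts are not a test against these shares. In the library labelled P180 the other cells are mostly erythroid-like, with few kinds of transcript, and the ratio ran from 14.5 for Erg to 2176 for Sox17, which rests on 3 UMIs in other cells. In the library labelled E18.5 it ran from 7.47 for Tshz2 to 359 for Mecom. Of 40 other transcription factors known from endothelium, a list applied in the same way, 20 of 27 that met the minimum were higher in the library labelled P180 and 15 of 32 in that labelled E18.5.

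By share of a gene's UMIs, the order of restriction to endothelial-like cells differed between libraries. These cells held 94.3% (84.3 to 98.8) of the Sox17 UMIs in the library labelled P180 and 96.8% (94.5 to 98.3) in that labelled E18.5. For Sox18 the shares were 88.9% and 96.4%, for Meis2 87.7% and 93.2%, and for Mecom 74.3% (69.7 to 78.4) and 98.3% (97.8 to 98.7). Gata4 stood at 69.2% and 93.0%, Maf at 64.5% and 69.2% and Tshz2 at 61.8% and 54.2%, in the same order. Erg and Meis1 differed most between libraries. Endothelial-like cells held 10.0% of the Erg UMIs with the P180 label and 93.5% with the E18.5 label, and 18% and 76.3% of those of Meis1. These shares also move with the number of cells of each class captured, and fewer cells of a type and less RNA per cell cannot be told apart in such sums.

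**Figure D1:**
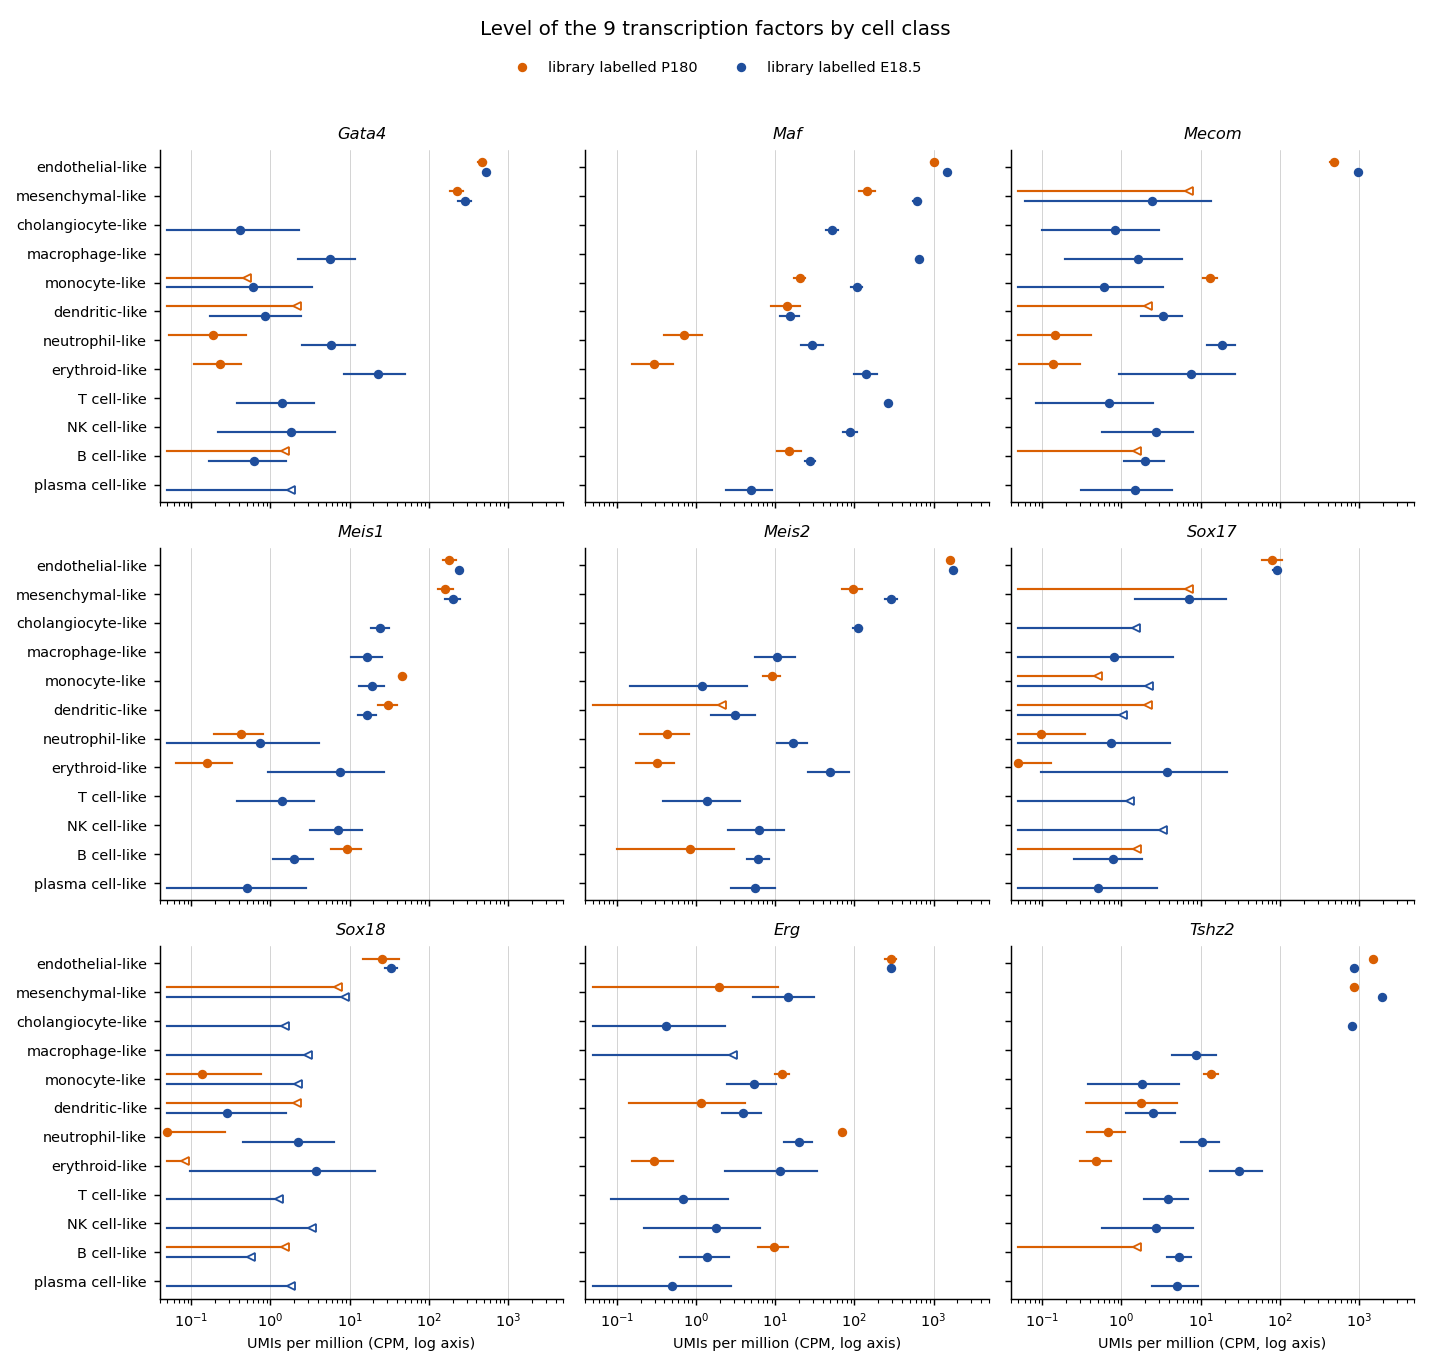
Level of each of the 9 transcription factors (CPM, log axis) in every cell class with at least 50 cells, in the library labelled P180 (orange) and the library labelled E18.5 (blue). Points are summed levels, lines are exact 95% Poisson intervals, and open triangles mark the upper limit where 0 UMIs were counted. Endothelial-like cells are highest for every gene but Tshz2, which in the library labelled E18.5 is highest in mesenchymal-like cells. For Meis1 the endothelial-like and mesenchymal-like levels do not differ beyond counting error in either library.

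Mesenchymal-like cells (stellate cells, fibroblasts and their like) were the highest other class for Gata4, Meis1, Meis2 and Tshz2 in both libraries. The endothelial level of Gata4 was 2.12-fold (1.70 to 2.65) above the mesenchymal level of 225 CPM (186 to 270) in the library labelled P180. With the E18.5 label it was 1.84-fold (1.53 to 2.23) above a mesenchymal level of 285 CPM (236 to 341). Gata4 is known to act in mouse stellate cells too. For Meis1 the endothelial ratio was 1.12 (0.833 to 1.5) over 162 CPM with the P180 label and 1.21 (0.967 to 1.53) over 201 CPM with the E18.5 label, so the classes did not differ beyond counting error in either library. For Tshz2 it was 1.75 (1.56 to 1.96) over 860 CPM in mesenchymal-like cells labelled P180 and 0.444 (0.411 to 0.479) over 1951 CPM in those labelled E18.5. Bile duct (cholangiocyte-like) cells, a class with the E18.5 label only, held Tshz2 at 814 CPM from 1969 UMIs. Between the libraries, 3 of the 5 members that met the minimum in mesenchymal-like cells were lower with the P180 label, Maf at 0.235 (0.179 to 0.305), Meis2 at 0.327 (0.230 to 0.460) and Tshz2 at 0.441 (0.392 to 0.495), where 21.8% of genes were lower and 21.1% higher. Tshz2 thus stood below 1 in these cells and above 1 in endothelial-like cells.

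Blood cell-like classes carried 3 of the members, Meis1 in large part through an unnamed group with bile duct markers, given below. Erg, which is also known from blood stem cells and early myeloid cells, stood at 70.4 CPM (66.9 to 74.1) in neutrophil-like cells labelled P180 and 19.8 CPM (13.1 to 28.8) in those labelled E18.5, a ratio of 3.55 (2.43 to 5.41). Of all genes in that comparison, 37.8% were at least 2-fold higher. Every one of the 4 neutrophil-like clusters labelled P180 held Erg, at 91.6, 78.2, 47.0 and 44.7 CPM, the last being the early granulocyte cluster led by Elane, Prtn3 and Mpo. With the E18.5 label, a cluster of 20 cells led by S100a9, S100a8, Camp and Ngp held it at 77.4 CPM (45.9 to 122), and the other 379 of 399 cells, led by S100a9, S100a8, Cxcl2 and Retnlg, at 7.97 CPM (3.64 to 15.1). Different clusters thus make up most of the class in each library, and the ratio joins them. Maf, a known regulator of macrophages and of helper T cells, stood at 653 CPM (609 to 699) in macrophage-like cells and 265 CPM (246 to 284) in T cell-like cells, both classes with the E18.5 label only. Meis1, known from blood stem cells, stood at 46.5 CPM (41.7 to 51.7) in monocyte-like cells labelled P180 and 19.3 CPM (13.2 to 27.3) in those labelled E18.5. A group of 34 cells within the P180 monocyte-like cluster, led by Spp1, Pf4 and Clu and with 7 bile duct markers among its top genes, held 222 of the 340 Meis1 UMIs. In that class 28.6% of all genes were at least 2-fold higher under the P180 label. The group also held 95 of 96 Mecom UMIs, 63 of 66 Meis2 UMIs, 68 of 90 Erg UMIs and 95 of 98 Tshz2 UMIs of that cluster. The cluster's levels of these genes rest largely on those cells. The group was given no name of its own.

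Shares of cells with a UMI were set beside those of the class with the lowest level of the same gene. With every cell thinned to 1000 UMIs (109 cells labelled P180 and 992 labelled E18.5), Meis2 was found in 79.8% (71.1 to 86.9) of endothelial-like cells labelled P180 and 75.3% (72.5 to 78.0) of those labelled E18.5. Without thinning these shares were 98.2% and 94.3%. In the class of lowest level the thinned share was 0 of 74 dendritic-like cells labelled P180, which allows up to 4.05% by a count of 3 and 4.86% by the exact interval, and 0 of 207 monocyte-like cells labelled E18.5, which allows up to 1.45% and 1.77% in the same way. Median depths were 3353.5 UMIs in endothelial-like and 23424 in dendritic-like cells labelled P180, and 3152 in endothelial-like and 7749 in monocyte-like cells labelled E18.5. Of the 18 combinations of gene and library, 15 had an interval wholly above that of the lowest class. Sox17 and Sox18 with the P180 label and Sox18 with the E18.5 label did not. The lowest class was picked by the gene's own level, so this count does not show endothelial-like cells above every class. Tshz2 with the E18.5 label is among the 15, though its level was higher in mesenchymal-like cells, as given above. Sox18 was found in 3.67% of thinned cells labelled P180 and 3.53% of those labelled E18.5, against 0 of 8248 other cells labelled P180 (exact upper limit 0.0447%) and 1 of 3505 other cells labelled E18.5 (upper limit 0.159%). The mesenchymal-like class it was set against held 60 thinned cells with the P180 label and 92 with the E18.5 label, with 0 of either carrying Sox18.

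Between the labels, 7 members had ratios of endothelial level between 0.694 and 0.999, P180 over E18.5. Mecom stood lowest, at 0.503, and Tshz2 was the only member above 1, at 1.73. Neither direction held a member past 2-fold, so 0 of 9 were higher and 0 of 9 lower. Without removal of doublets 4 were lower (Maf, Mecom, Meis1 and Sox18), in a P180 class of 179 cells. Among the 8250 genes that met the minimum, 4.82% were higher by this measure with the P180 label and 10.1% lower. The median log2 ratio was -0.19 for the 9 members and 0.02 for all genes.

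Of the sinusoidal factors, Gata4 gave 297 UMIs and 476 CPM (423 to 533) labelled P180, against 2078 UMIs and 525 CPM (503 to 548) labelled E18.5, a ratio of 0.907 (0.80 to 1.02). Maf stood at 1017 CPM (940 to 1100) with the P180 label and 1466 CPM (1428 to 1504) in that labelled E18.5, a ratio of 0.694 (0.639 to 0.754). The intervals overlap for Gata4 and are apart for Maf. The mitochondrial limit left out unequal parts of the endothelial-like barcodes of each label, as given below with the Maf and Mecom levels. Thinned to 1000 UMIs, 54.1% of P180 cells and 70.6% of E18.5 cells carried Maf, and 33.9% and 34.5% carried Gata4.

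Of the TALE factors, Meis2 stood at 1609 CPM (1511 to 1711) with the P180 label and 1788 CPM (1746 to 1830) with the E18.5 label, a ratio of 0.900 (0.842 to 0.962). Meis1 stood at 181 CPM (149 to 218) in cells labelled P180, against 244 CPM (228 to 259) in cells labelled E18.5, a ratio of 0.743 (0.606 to 0.904). Both intervals lie below 1, and neither gene reached the 2-fold limit. Erg, the ETS factor, was equal, with 287 CPM (246 to 332) in cells labelled P180 and 287 CPM (271 to 304) in cells labelled E18.5 and a ratio of 0.999 (0.849 to 1.17). Sox17 gave 50 UMIs in cells labelled P180, or 80.1 CPM (59.5 to 106), against 363 UMIs in cells labelled E18.5, or 91.7 CPM (82.5 to 102). Sox18 gave 16 UMIs in cells labelled P180, or 25.6 CPM (14.7 to 41.6), against 132 UMIs in cells labelled E18.5, or 33.3 CPM (27.9 to 39.5). The intervals of both SoxF ratios, 0.637 to 1.18 for Sox17 and 0.427 to 1.3 for Sox18, include 1 and do not exclude a moderate difference.

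Tshz2 stood at 1501 CPM (1407 to 1601) with the P180 label and 865 CPM (837 to 895) with the E18.5 label, a ratio of 1.73 (1.61 to 1.87). With cells thinned to 1000 UMIs it was found in 72.5% (63.1 to 80.6) of cells labelled P180 and 46.8% (43.6 to 49.9) of those labelled E18.5. Both the level and the share were higher with the P180 label.

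Mecom gave 303 UMIs in cells labelled P180, or 485 CPM (432 to 543), against 3817 UMIs in cells labelled E18.5, or 964 CPM (934 to 995), a ratio of 0.503 (0.446 to 0.566). Of the P180 UMIs, 104 (34.3%) came from 1 cell. Without the cell of highest Mecom count in each library, the level was 327 CPM labelled P180 and 948 CPM labelled E18.5, and the ratio 0.345 (0.298 to 0.398). Thinned to 1000 UMIs, 13.8% (7.91 to 21.7) of cells labelled P180 and 34.0% (31.0 to 37.0) of those labelled E18.5 carried a Mecom UMI. The Mecom ratio lies close to the 2-fold limit. Its call changes without a single cell, and also with other processing choices given at the end. The share of cells with Mecom does not rest on that cell.

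The 3 clusters labelled E18.5 differed in 6 of the 9 members by at least 2-fold between the highest and the lowest cluster. Of the 8220 genes that met the minimum over the 3 clusters together, 21.1% did so. The 9 genes were chosen with earlier results of these data known, so this count is not a test against that share. Mecom marked the Ldb2-led cluster, with 2080 CPM (2009 to 2154), against 416 CPM (381 to 453) in the Rspo3-led and 108 CPM (90.2 to 128) in the Stab2-led cluster. The Ldb2-led cluster stood 19.3-fold (16.1 to 23.2) above the Stab2-led cluster and 5.0-fold (4.56 to 5.5) above the Rspo3-led cluster. Of Ldb2-led cells thinned to 1000 UMIs, 67.3% carried Mecom, against 24.2% of Rspo3-led and 9.54% of Stab2-led cells. Maf ran in another order, with 2749 CPM (2655 to 2844) in the Stab2-led, 1071 CPM (1019 to 1124) in the Ldb2-led and 715 CPM (669 to 764) in the Rspo3-led cluster. The intervals of all 3 levels are apart for both genes.

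Sox17, Sox18 and Meis1 shared the Ldb2-led cluster as their highest. Sox17 stood at 157 CPM (137 to 178) there, against 75.4 CPM (60.6 to 92.6) in the Stab2-led and 27.4 CPM (19 to 38.4) in the Rspo3-led cluster. Meis1 stood at 397 CPM (366 to 430), 196 CPM (172 to 223) and 100 CPM (83.3 to 119) in that order of clusters. Sox18 stood at 51.1 CPM (40.4 to 63.8), 26.8 CPM (18.3 to 37.8) and 17.8 CPM (11.1 to 26.9), and its lower 2 levels did not differ beyond their intervals. Tshz2 was highest in the Rspo3-led cluster, at 1455 CPM (1388 to 1523), against 724 CPM (677 to 774) in the Stab2-led and 498 CPM (463 to 534) in the Ldb2-led cluster. The central vein cluster was thus the lowest of the 3 for Maf, Meis1 and Sox17 and the highest for Tshz2. For Sox18 its interval was not apart from that of the Stab2-led cluster.

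Gata4, Meis2 and Erg varied by less than 2-fold. Gata4 stood at 572 CPM (531 to 616) in the Rspo3-led, 534 CPM (498 to 572) in the Ldb2-led and 465 CPM (427 to 505) in the Stab2-led cluster, and the upper 2 did not differ beyond counting error. Meis2 stood at 2022 CPM (1951 to 2095) in the Ldb2-led, 1706 CPM (1633 to 1782) in the Stab2-led and 1577 CPM (1508 to 1649) in the Rspo3-led cluster. Erg stood at 343 CPM (311 to 377) in the Rspo3-led, 309 CPM (278 to 342) in the Stab2-led and 224 CPM (201 to 249) in the Ldb2-led cluster. Mitochondrial content moved with the clusters as given above, and barcodes left out for it differed in Maf, Mecom and Erg. In a grouping of the E18.5 library without a mitochondrial limit, endothelial-like barcodes at or above 25% (1516) held Maf at 3047 and Mecom at 396 CPM of the non-mitochondrial UMIs, against 1658 and 1089 in those under 25% (1014). In the library labelled P180, grouped in the same way, 44 barcodes at or above 25% held Maf at 1903 and Mecom at 95.1 CPM. That Mecom level rests on 3 UMIs. The 122 barcodes under 25% held 1070 and 501 CPM. The limit thus left out a larger part of the endothelial-like barcodes labelled E18.5 than of those labelled P180. The part of mitochondrial content in the cluster differences was not tested. Ratios between the labels under other mitochondrial limits were among the alternatives tried.

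The 110 cells labelled P180 were divided further, after the data had been seen, into 4 groups. The Rspo3 group (32 cells, 226663 UMIs) had 6 central vein markers among its top genes. The Gja5 group (28 cells, 224062 UMIs) was led by Igf2 and Adgrg6 and had 4 arterial markers, Gja5 and Nrg1 among its leading genes. The Hgf group (21 cells, 102540 UMIs) was led by Hgf and Ctnna3 and held Stab2 at 3121 CPM, with 1 sinusoid marker among its top genes. A shallow group (29 cells, 70846 UMIs, median 2249 per cell) held Stab2 at 2964 CPM, with 0 sinusoid markers among its top genes. It was led by 2900052L18Rik and Gm26917 and by transcripts of hepatocytes, red cells and neutrophils such as Fabp1, Bpgm and Ngp. The Gja5 group was mixed, with Stab2 at 1236 CPM, and at a lower resolution 6 of its cells, with all 24 Gja5 UMIs, joined the Rspo3 group.

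The same genes were spread unevenly in these groups. Mecom stood at 1089 CPM (957 to 1235) in the Gja5 group, against 181 CPM (130 to 245) in the Rspo3, 166 CPM (96.6 to 265) in the Hgf and 14.1 CPM (0.357 to 78.6) in the shallow group. Of the 244 Mecom UMIs in the Gja5 group, 104 came from the 1 cell named above. At the lower resolution, a group of 39 cells, with all 32 of the Rspo3 group and 6 of the Gja5 group, held 239 Mecom UMIs. Of these the Rspo3 group held 41. The other 71 cells, 22 of them from the Gja5 group, held 64. Maf stood at 2087 CPM (1817 to 2386) in the Hgf, 1228 CPM (984 to 1515) in the shallow, 1062 CPM (932 to 1206) in the Gja5 and 424 CPM (343 to 517) in the Rspo3 group. Tshz2 stood at 2268 CPM (2076 to 2472) in the Rspo3, 1941 CPM (1680 to 2230) in the Hgf, 960 CPM (745 to 1217) in the shallow and 696 CPM (591 to 814) in the Gja5 group. Meis1 was highest in the Hgf group, at 497 CPM (370 to 654), and lowest in the Rspo3 group, at 35.3 CPM (15.2 to 69.5). With the minimum of 50 UMIs taken over the 4 groups together, 6 of the 8 members that met it differed at least 2-fold between the highest and lowest group. Sox17 is among them with at most 27 UMIs in a group. Of 2732 genes, 67.4% did so, and the members' share is near that background.

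**Figure D2:**
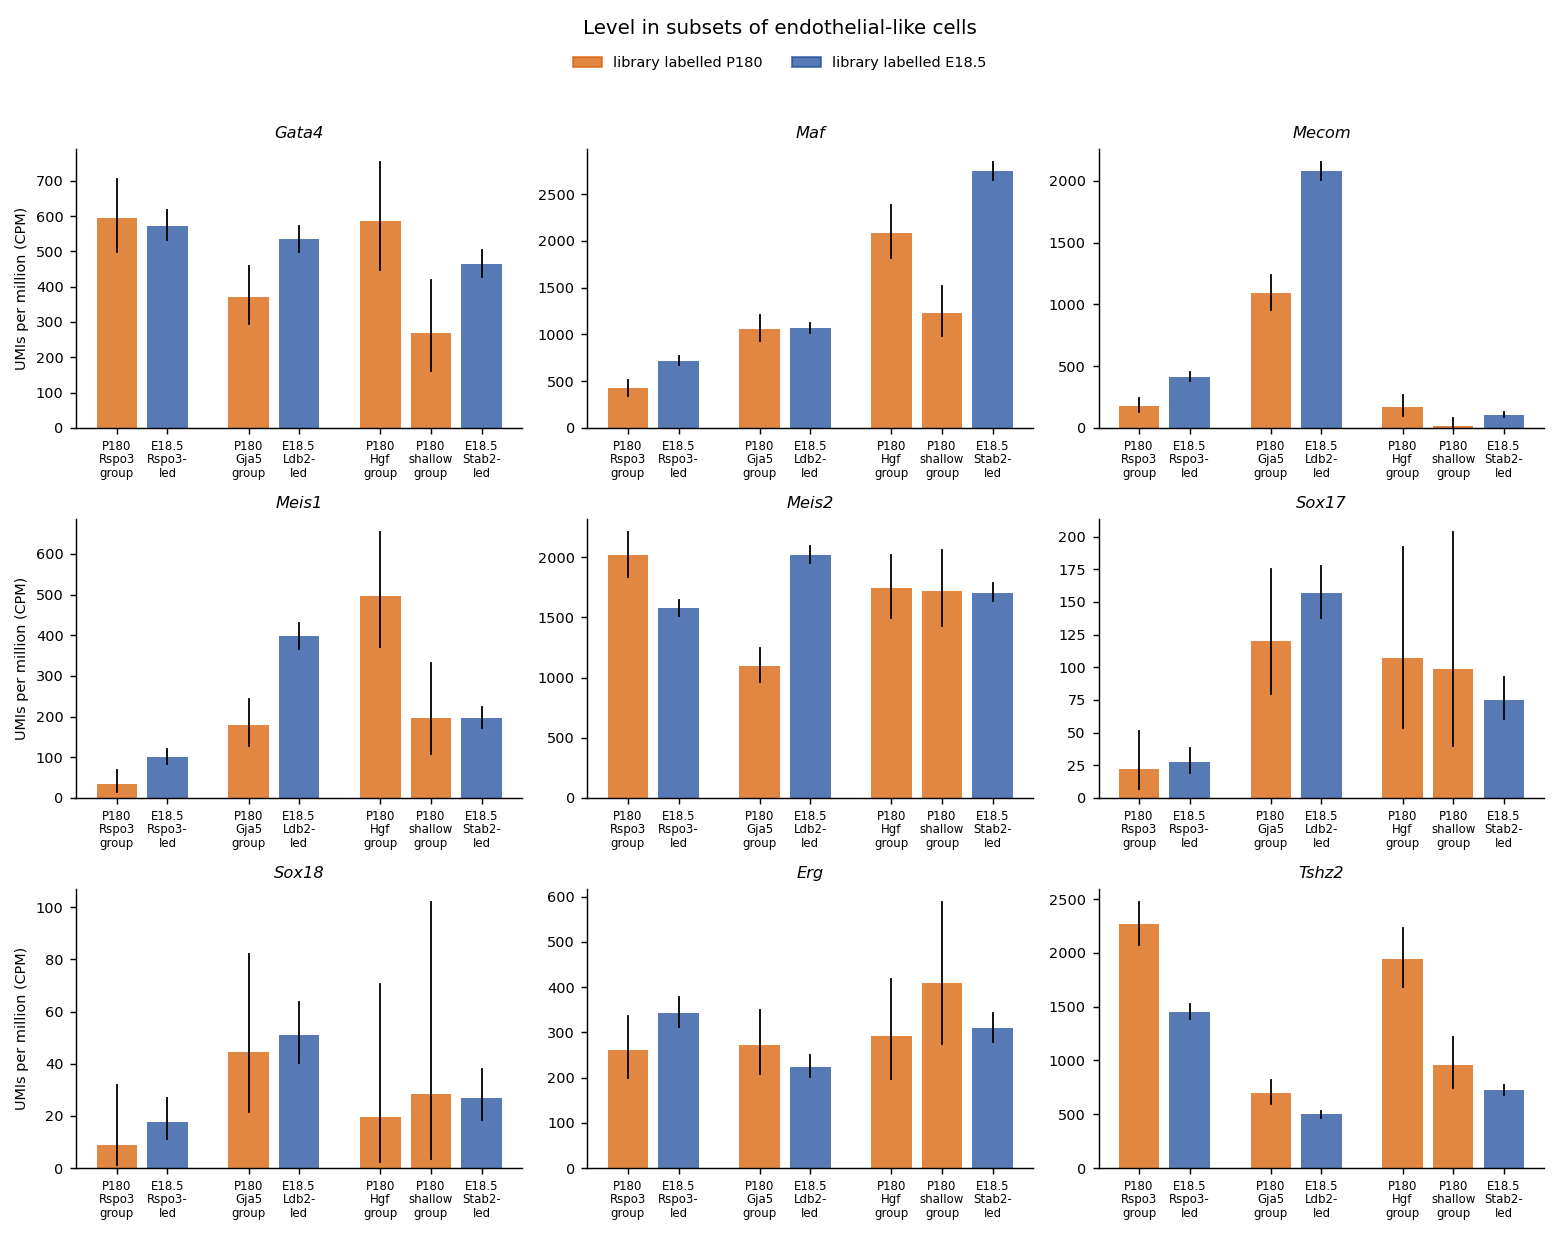
Level of each transcription factor (CPM, linear axis from 0) in the 4 groups of endothelial-like cells labelled P180 (orange) and the 3 clusters labelled E18.5 (blue), set side by side by leading markers. Black lines are exact 95% Poisson intervals. Mecom is highest in the Gja5 group (1089 CPM) and the Ldb2-led cluster (2080 CPM), and Maf is highest in the Hgf group (2087 CPM) and the Stab2-led cluster (2749 CPM). The Gja5 group is mixed and changes with the resolution, and 104 of its 244 Mecom UMIs come from 1 cell.

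Set side by side by their markers, the subsets gave the following ratios, P180 over E18.5. These pairs were chosen after the data had been seen. The Hgf group had 1 sinusoid marker among its top genes, so its pairing with the Stab2-led cluster rests on little. Between the Rspo3 group and the Rspo3-led cluster, Mecom at 0.435 (0.309 to 0.599) and Meis1 at 0.353 (0.149 to 0.717) were lower, which is 2 of 7 members that met the minimum, against 14% of genes lower and 4.30% higher. Tshz2 was 1.56 (1.41 to 1.72), Meis2 1.28, Gata4 1.04, Erg 0.759 and Maf 0.592. Between the Gja5 group and the Ldb2-led cluster, Meis1 of the 9 was lower, at 0.449 (0.318 to 0.619), against 14.8% of genes lower and 7.09% higher. Mecom was 0.523 (0.458 to 0.596), and without the cell of highest Mecom count on each side it was also past 2-fold, at 672 CPM labelled P180 and 2051 CPM labelled E18.5, a ratio of 0.328 (0.275 to 0.388). Meis2 was 0.543, while Maf was 0.992, Erg 1.21 and Tshz2 1.40. The Gja5 group is mixed, as given above, and the part of that mixture in these ratios was not tested. Between the Hgf group and the Stab2-led cluster, Tshz2 at 2.68 (2.29 to 3.13) and Meis1 at 2.54 (1.84 to 3.45) were higher, which is 2 of 8, against 7.80% of genes higher and 15.1% lower. Maf was 0.759, Gata4 1.26 and Meis2 1.02 there.

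Tshz2 was above 1 in each of these 3 pairs and Meis1 went both ways, so its class ratio of 0.743 joins opposite values. The shallow group against the Stab2-led cluster gave 0.447 for Maf, 0.131 (0.00328 to 0.741) for Mecom, which rests on 1 UMI labelled P180, and 1.33 for Tshz2. In that pair 23.7% of genes were at least 2-fold lower and 5.16% higher, and depth and transcripts of other cell types moved with it as given above. Their part in these ratios was not tested.

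**Figure D3:**
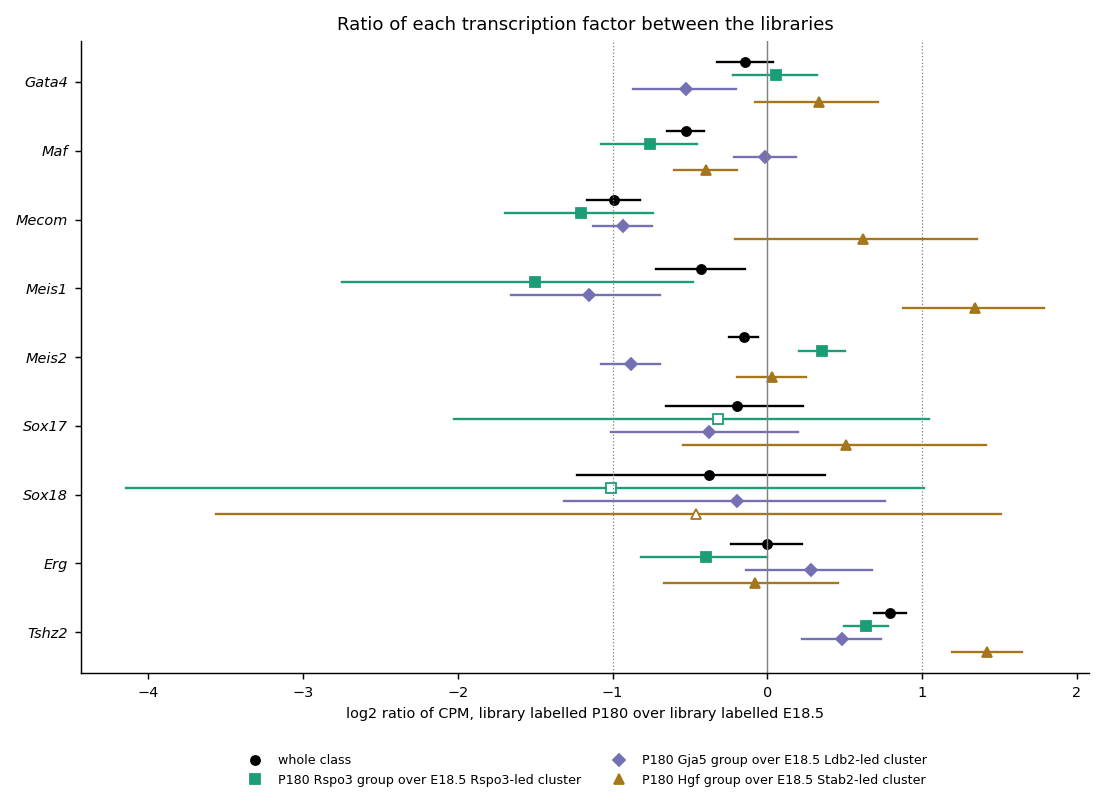
Log2 ratio of the level of each transcription factor, library labelled P180 over library labelled E18.5, for the whole endothelial-like class (black circles) and for 3 pairs of subsets. Lines are exact 95% intervals for counting error, open symbols did not reach 50 UMIs on either side, and dotted lines mark a 2-fold difference. Tshz2 lies above 0 in all 4 comparisons, and Meis1 lies below 0 in 3 and above it for the Hgf group.

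The other endothelial transcription factors held values on both sides of 1. Of 40, 29 met the minimum, 0 were higher with the P180 label, 8 lower and 21 between, with a median log2 ratio of -0.29. Over all genes that met the minimum, 10.1% were lower and 4.82% higher, as above. Klf4 stood at 46.5 CPM with the P180 label and 165 CPM with the E18.5 label, a ratio of 0.282 (0.187 to 0.409). Klf2 stood at 295 CPM and 626 CPM, a ratio of 0.471 (0.403 to 0.547), and Hes1, a Notch target, at 75.3 CPM and 243 CPM, a ratio of 0.310 (0.226 to 0.415), each in that order of labels. Gata2 gave 0.299 (0.141 to 0.561), Epas1 0.497 (0.423 to 0.581) and Hhex, the gene knocked out in the hosts, 0.440 (0.305 to 0.617). At the upper end Nfatc1 gave 1.42 (1.00 to 1.97), Fli1, the ETS relative of Erg, 1.36 (1.23 to 1.5), Foxo1 1.22 (1.06 to 1.40), Elk3 1.21 (1.10 to 1.34) and Sox7, the third SoxF gene, 1.29 (0.922 to 1.77).

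Of 34 relatives and partners of the members, 20 met the minimum, with 1 higher, 3 lower and a median log2 ratio of -0.23. The higher one was Zfpm1, a cofactor of GATA factors, at 159 CPM with the P180 label and 69.5 CPM with the E18.5 label, a ratio of 2.28 (1.80 to 2.88). Zfpm2, the other such cofactor, gave 0.892 (0.787 to 1.01). Pknox2, a TALE relative of the Meis genes, had 0 UMIs with the P180 label and 357 UMIs (90.2 CPM) with the E18.5 label, at least 18.8-fold lower against a floor of 3 counts over the class, with an exact interval for the ratio that reaches 0.0659. Tshz1 stood at 32.0 CPM and 76.8 CPM in that order, a ratio of 0.417 (0.251 to 0.656). Gata2, Gata6, Fli1 and Sox7 are in both lists.

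Genes of the vessel beds were counted beside them. Of 18 sinusoid genes, 16 met the minimum, with 1 higher (Lyve1, 681 CPM labelled P180 and 176 CPM labelled E18.5, ratio 3.86), 1 lower (Fcgr2b, 135 CPM and 517 CPM, ratio 0.260) and a median log2 ratio of 0.09. Of 28 genes of large vessels and capillaries, 25 met it, with 1 higher, 16 lower and a median of -1.33. Ly6a gave 0.0426 (0.0256 to 0.0667) and Nrg1 0.144 (0.106 to 0.192). The higher one, Aplnr, named after its value had been seen, had 62 UMIs with the P180 label and 8 with the E18.5 label, a ratio of 49.2. The low values of this list stand beside the low Mecom ratio. Fewer cells of a vessel bed in the P180 class and lower levels per cell cannot be told apart in the class ratio. Of 15 pan-endothelial genes, 0 were higher and 1 lower (Plvap, 0.383), with a median of -0.21.

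**Figure D4:**
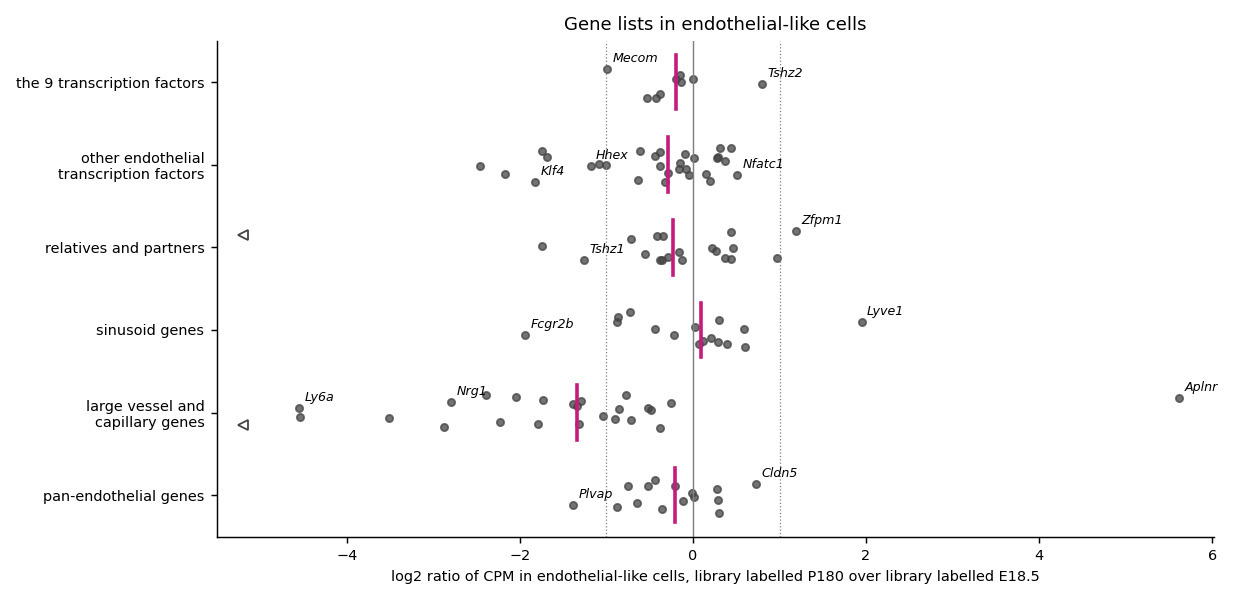
Log2 ratio of level in endothelial-like cells, library labelled P180 over library labelled E18.5, for each gene of 6 lists that reached 50 UMIs in at least 1 library. Each dot is 1 gene, magenta bars are medians, open triangles mark genes with 0 UMIs labelled P180, and dotted lines mark a 2-fold difference. The median of the 9 transcription factors is -0.19 and that of the large vessel and capillary genes is -1.33.

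Over the 45 clusters of both libraries, the gene most like each member was found by Pearson correlation of log2(CPM + 10) among 10143 genes. This was Ramp2 for Gata4 (r = 0.99), Hivep3 for Maf (0.90), Afap1l1 for Mecom (0.95), Sept10 for Meis1 (0.93) and Arhgap29 for Meis2 (0.99). It was Srgap1 for Sox17 (0.97), Mmrn2 for Sox18 (0.98), Ica1 for Erg (0.93) and Nfib for Tshz2 (0.99). Clusters share a library, and many of these values are set by the contrast of endothelial clusters with all others. With 1 CPM in place of 10 CPM added, the same gene remained the most like for Gata4 and Maf only. With clusters of the E18.5 library alone, it remained so for Gata4, Meis2, Sox17 and Sox18. It changed for Mecom, Meis1, Erg, Tshz2 and Maf, for which it became Lars2 (0.87).

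The genes differ widely in length on mm10 (GRCm38). Mecom spans 596713 bases at chr3:29951296-30548008 on the minus strand, and 2.08% of it is exonic. Sox18 spans 1805 bases at chr2:181669836-181671640 on the minus strand, and 89.8% of it is exonic. Tshz2 spans 438804 bases at chr2:169633013-170071816 on the plus strand. The other six lie on the minus strand, Gata4 at chr14:63198922-63271692, Maf at chr8:115682942-115707794, Meis1 at chr11:18879817-19018985, Meis2 at chr2:115863064-116065839, Sox17 at chr1:4490931-4497354 and Erg at chr16:95359169-95586593. Levels of different genes were not compared, since 3′ tags capture each transcript with its own efficiency. Of genes in the gene table, those of the opposite strand overlap Maf (Gm15655), Mecom (Mecomos), Meis1 (Gm16140 and Gm16141) and Sox17 (Gm37587). Each has fewer than 50 UMIs in either library. On the same strand 5 annotated genes overlap Mecom and 3 overlap Meis1, with 0 of them in the gene table. Whether their reads were counted for Mecom or Meis1 was not tested.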

How the data were processed

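Single-cell 3′ RNA libraries of 2 livers, 1 labelled P180 and 1 labelled E18.5, were analysed. The authors deposited raw UMI counts per gene and barcode, and the file headers name Cell Ranger 7.1.0. The submitters' processing notes also name fastp, Trimmomatic, Seurat, edgeR and mm10, without a role. The heart named in the study's design was not analysed here. The 9 genes and the gene lists were chosen with earlier results of these data known.

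Barcodes with at least 200 genes, 500 UMIs and under 25% mitochondrial UMIs were kept. The barcodes with the highest Scrublet scores were left out at 0.8% per 1000 barcodes (735 with the P180 label, 178 with the E18.5 label), where the caller's own threshold marked 0 and 79. Each library was clustered on its own with scanpy 1.11.5 and leidenalg 0.10.2 (2000 variable genes, 30 components, 15 neighbours, resolution 1, seed 1), leaving out 79 genes (the members and both lists of transcription factors). A cluster took the class with the most markers, at least 3, among its top 50 genes, and this rule was set after clusters had been seen. Groups within the P180 endothelial cluster (10 components) and their pairing with E18.5 clusters were also chosen after seeing the data.

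UMIs were summed per class and scaled to a total of 1e6 (CPM). Levels have exact Poisson, ratios exact conditional and shares exact binomial (Clopper-Pearson) 95% intervals, for counting error only. A floor of 3 counts was used where a count was 0. List genes are named where they had at least 200 UMIs in endothelial-like cells of 1 library and were among the 6 highest or lowest ratios. The scripts were tested on simulated data. Other filters, scalings, clusterings and minimums, 19 in all, were tried.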

Additional observations from a re-analysis of the deposited data

How the results depend on the processing

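No paired analysis was possible because each stage is 1 library. In the analysis as reported, 0 members were at least 2-fold higher and 0 lower in endothelial-like cells labelled P180. The count of higher members was 2 (Mecom and Tshz2) when the P180 class was set against the Stab2-led E18.5 cluster alone. That alternative was meant for sinusoid-led clusters in both libraries, but the P180 class is 1 cluster and entered whole, with its Rspo3 and Gja5 groups. The count of lower members was 1 with a mitochondrial limit of 10%, with endothelial cells taken by markers, with median of ratios scaling, with totals without haemoglobin and mitochondrial genes, against the Stab2-led cluster alone, and without the cell holding the most UMIs of a gene. That member was Mecom, except against the Stab2-led cluster alone, where it was Maf. The count was 4 (Maf, Mecom, Meis1 and Sox18) with no doublets left out and with Scrublet's own threshold. The P180 class then held 179 cells, and the median log2 ratio of the other endothelial transcription factors was -0.77 and -0.78, against -0.29 as reported. Against the Stab2-led cluster alone, members apart between clusters could not be counted. The log2 ratio of Mecom ran from -1.77 to 2.17 over the alternatives that recompute the class ratio and that of Tshz2 from 0.16 to 1.05. That of Erg, equal as reported, ran from -0.79 to 0.07. Of 153 recomputed ratios 30 moved beyond their interval, and of 306 levels 55 did. The counts against other cells (8 and 9), between E18.5 clusters (6) and of shares above the lowest class (15) stayed within 1.5 times. This held under every alternative that gave them. Sox18, with 16 UMIs labelled P180, is limited by depth.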
